A study of Mus musculus with 33 samples.

Results

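The transcription factors Tlx1, Nkx2-5, Nkx2-3, Wt1, Tcf21 and Barx1 were followed across the spleens and lymph nodes of mice given nicotinamide (NAM), an amide form of vitamin B3 that cells turn into NAD. The 6 genes were taken as the rows of the deposited table that carry these symbols, and each symbol matched 1 row, giving 6 of 56414 rows. They are known as a gene set of the splenic mesenchyme, the connective tissue of the developing spleen. Tlx1 and Wt1 keep the early spleen alive, Nkx2-5 acts in its outgrowth, Nkx2-3 shapes the vessels and marginal zone, and Tcf21 and Barx1 act in the mesoderm from which spleen and stomach arise. In the adult spleen such genes are known from the stromal cells, a small part of an organ made mostly of lymphocytes and macrophages.

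All mice were of the C57Bl/6 strain. Treated mice drank water with 0.5% NAM for 1, 3 or 14 days, and a single untreated group served all 3 durations. Each of the 4 groups had 5 of the 20 libraries that carry the spleen label. The 13 libraries that carry the lymph node label fell into 3 untreated ones and 2, 4 and 4 from mice treated for 1, 3 and 14 days. The labels give neither age nor sex, nor whether an animal gave both organs, so p-values measure the spread between these samples. The depth of a library lay between 18325061 and 54830743 reads in the first set and between 30424968 and 46733974 in the second.

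Marker genes went against the organ labels in 33 of 33 libraries. Glycam1, a mucin of the high endothelial venules of lymph nodes, had a normalised read count of 112360 to 225150 in the libraries labelled spleen and of 1.52 to 11.7 in those labelled lymph node. Spic, which directs the red pulp macrophages of the spleen, ran from 804 to 1361 and from 5814 to 10071, respectively. Every group is therefore named by its label, and each difference between labels below has the direction of the labels. The normalised read count is the number of reads divided by a scaling factor for its library, and it was set on a common scale of all 33 libraries wherever labels were compared. In the text, values of single genes by days of NAM within a label are on the deposited scale, which was set for each label separately. Summed levels of gene lists are on the common scale throughout.

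All 6 factors were at a higher level in the libraries labelled lymph node, and in the 20 libraries labelled spleen they had between 0 and 28 reads in all. Tcf21, a basic helix-loop-helix factor of visceral mesoderm, had a normalised read count of 2998 to 5019 over the 13 libraries labelled lymph node, with a median of 4074.5. In the 20 libraries labelled spleen, 17 had no read of Tcf21 and the other 3 had 2 reads each. The homeobox gene Nkx2-3 ran from 437 to 614 (median 550.3) under the lymph node label and had 4 reads in all under the spleen label. Tlx1, the homeobox gene without which mice form no spleen, ran from 335 to 544 (median 401), against 28 reads in all. The ranges of these 3 genes did not overlap between labels.

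Nkx2-5, an NK-2 homeobox gene also known from the heart, ran from 158 to 257 (median 216) under the lymph node label. Wt1, a zinc finger factor also known from the mesothelium and kidney, ran from 131 to 191 (median 158). Neither had a single read in the 20 libraries labelled spleen. Barx1, a homeobox gene known from the stomach mesenchyme, was the lowest of the 6. It ran from 0 to 47.3 (median 9.49) under the lymph node label and had reads in 12 of the 13 libraries, against 6 reads in 2 of the 20 libraries labelled spleen. Its ranges overlapped, since 1 library labelled lymph node was at 0. Over all 33 libraries, 5 of the 6 factors lay higher in every library labelled lymph node than in any labelled spleen, a pattern that 13.2% of the 19290 genes tested across labels shared.

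**Figure D1:**
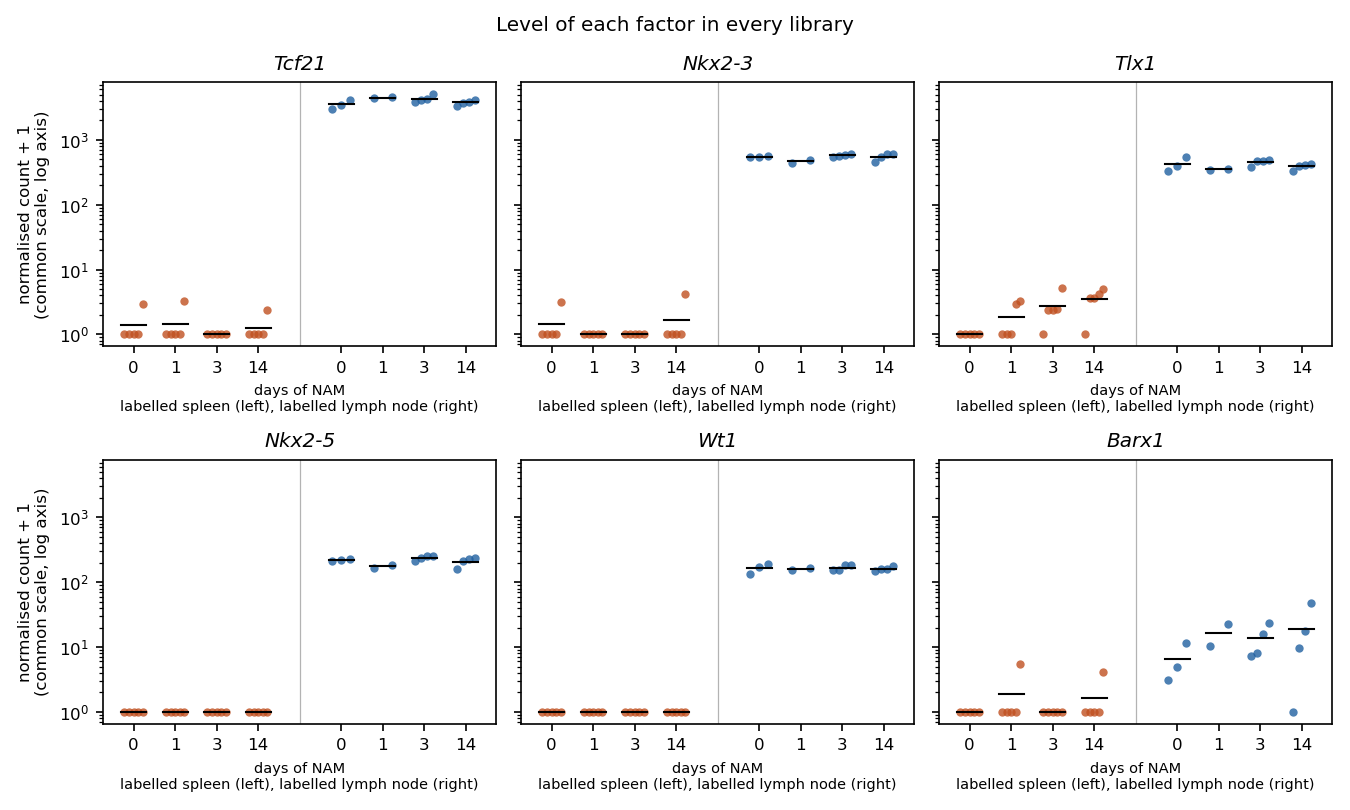
Each panel shows 1 factor, each point 1 library (normalised read count plus 1 on the common scale, log axis) and each bar a group mean, with the libraries labelled spleen on the left and those labelled lymph node on the right by days of NAM (0 is untreated). Tcf21, Nkx2-3, Tlx1, Nkx2-5 and Wt1 show a gap between labels in all groups, while Barx1 is low and scattered.

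In untreated mice, the labels were compared with limma on log2(normalised read count + 1), with 3 libraries labelled lymph node and 5 labelled spleen. All 6 factors passed the threshold of an adjusted p of 0.05, all higher under the lymph node label. Such a rise was called in 31.2% of the 19290 genes tested, a lower level in 32.2% and either in 63.4%. The factors reached the filter on low values through the lymph node label alone, where they are high, which favours a difference. Their count, and the ranks and adjusted p below, are therefore a description. Ranks run down over all genes from the largest rise under the lymph node label, so falls such as that of Glycam1 (-14.5) have no high rank. The log2 difference was 11.5 ± 0.35 (SE) for Tcf21, which ranked 1. It was 8.78 ± 0.37 for Nkx2-3 (rank 9), 8.70 ± 0.46 for Tlx1 (rank 10), 7.78 ± 0.24 for Nkx2-5 (rank 23) and 7.34 ± 0.24 for Wt1 (rank 29). The adjusted p of these 5 in the limma fit was at most 3.36e-16. With other added counts, filters, scalings or tools, the difference ranged from 9.36 to 14.2 for Tcf21, 6.69 to 11.5 for Nkx2-3, 6.39 to 12 for Tlx1, 5.48 to 11.1 for Nkx2-5, 5.06 to 10.7 for Wt1 and 0.989 to 5.54 for Barx1, and the ranks were taken at an added count of 1. Barx1 had a log2 difference of 2.48 ± 0.80 (rank 534, limma adjusted p = 0.00802), and without untreated replicate 3 of the lymph node label it fell to 1.96 with an adjusted p of 0.0663.

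The fitted differences of genes at or near 0 depend on the added count, so the levels were also compared as ratios of read pairs summed over all libraries of a label. Where one label had no reads, a floor of 3 read pairs over that label gave a lower bound. Nkx2-5 was at least 729.6-fold and Wt1 at least 556-fold higher under the lymph node label. The ratio was 13642 for Tcf21 (95% counting interval 4668 to 66156), 2782 for Nkx2-3 (769.5 to 22977), 301 for Tlx1 (179 to 551) and 48.5 for Barx1 (16.1 to 239). These intervals cover counting error only, and the sums hold treated libraries too. In untreated libraries alone, the ratio was 6882 for Tcf21 (1235 to 271880) and 1075.5 for Nkx2-3 (192 to 42533). There, a floor of 3 read pairs gave at least 273-fold for Tlx1, 142-fold for Nkx2-5, 106-fold for Wt1 and 3.54-fold for Barx1. In bulk tissue, fewer cells of a type cannot be told apart from less RNA per cell.

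The 6 levels were ordered per kb of annotated exon, in the 13 libraries labelled lymph node. Tcf21 led with a mean of 1700.4 normalised counts per kb (range 1276 to 2137), followed by Nkx2-3 with 258 (207 to 291), Tlx1 with 193 (157 to 254), Nkx2-5 with 137 (101 to 164), Wt1 with 26.3 (21.1 to 30.8) and Barx1 with 9.39 (0 to 33.8). Within a library, each gene lay above the next in 13 of 13 libraries, except that Wt1 lay above Barx1 in 12 of 13. Across libraries the ranges of Nkx2-3 and Tlx1 overlapped, as did those of Tlx1 and Nkx2-5 and those of Wt1 and Barx1. The steps below Tcf21 and below Nkx2-5 were without overlap, with median ratios of 6.52 and 5.38 to the next gene. The regions on which reads were counted can be shorter than the annotated exons, which would move levels per kb.

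**Figure D2:**
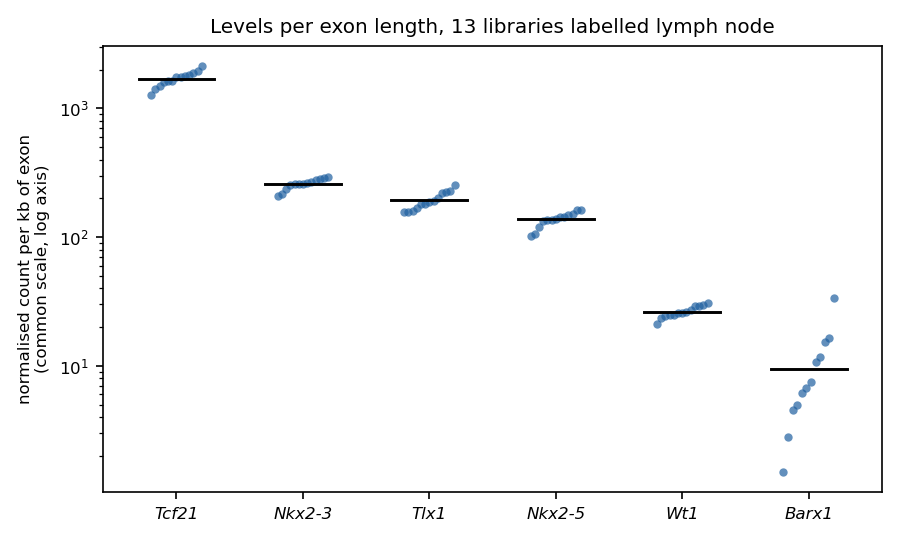
Points are the 13 libraries labelled lymph node and bars their means, as normalised read count per kb of exon (common scale, log axis). The levels step down from Tcf21 to Barx1, and the 1 library without Barx1 reads is counted in the mean but cannot be drawn on the log axis.

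The 6 genes lie on 5 chromosomes of mm10. Tlx1 (GSMG0019744, chr19:45150715-45156943, plus strand) and Nkx2-3 (GSMG0019717, chr19:43612325-43615891, plus strand) share chromosome 19. Nkx2-5 (GSMG0017280) lies at chr17:26838664-26841615 on the minus strand and Wt1 (GSMG0021510) at chr2:105126529-105173614 on the plus strand. Tcf21 (GSMG0003890) lies at chr10:22817272-22820175 on the minus strand and Barx1 (GSMG0009735) at chr13:48663034-48666522 on the plus strand. In GENCODE, the antisense gene Tlx1os overlaps Tlx1 and the antisense gene Gm10824 overlaps Tcf21, each with 0 shared exon bases. The sequences upstream of the 4 factors with the highest level per kb are shown to set side by side the promoter windows of the factors with the most reads for their length. They are RefSeq promoters of GRCm38.p6, the assembly of mm10, read 5′ to 3′ from 250 bases before the RefSeq start and ended before the gene start in the deposited annotation, with CCAAT on either strand in capitals.
Tcf21 (chr10:22820176-22820393, minus strand): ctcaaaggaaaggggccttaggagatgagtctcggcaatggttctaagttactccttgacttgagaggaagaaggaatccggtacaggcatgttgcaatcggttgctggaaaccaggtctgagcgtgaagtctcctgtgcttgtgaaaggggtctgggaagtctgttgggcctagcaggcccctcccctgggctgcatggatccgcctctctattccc
Nkx2-3 (chr19:43612075-43612324, plus strand): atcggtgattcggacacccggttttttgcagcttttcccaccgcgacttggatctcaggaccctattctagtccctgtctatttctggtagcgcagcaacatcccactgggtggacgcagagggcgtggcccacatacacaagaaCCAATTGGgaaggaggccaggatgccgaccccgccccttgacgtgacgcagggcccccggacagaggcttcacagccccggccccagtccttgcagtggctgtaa
Tlx1 (chr19:45150465-45150714, plus strand): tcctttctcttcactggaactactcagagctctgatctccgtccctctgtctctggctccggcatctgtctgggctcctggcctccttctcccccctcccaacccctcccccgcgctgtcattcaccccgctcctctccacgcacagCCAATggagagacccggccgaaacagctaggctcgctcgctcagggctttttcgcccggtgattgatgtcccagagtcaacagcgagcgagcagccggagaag
Nkx2-5 (chr17:26841616-26841815, minus strand): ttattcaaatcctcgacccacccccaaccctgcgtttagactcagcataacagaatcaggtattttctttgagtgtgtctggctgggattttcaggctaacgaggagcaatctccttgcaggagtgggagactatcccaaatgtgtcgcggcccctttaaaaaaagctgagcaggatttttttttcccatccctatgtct

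RefSeq promoters matched 5 of the 6 factors, and all windows of 250 bases were searched on both strands. CCAAT occurred in 2 of the 5 (Nkx2-3 and Tlx1) and in 33.8% of the 32851 windows of the same length. Nkx2-3 held it on both strands, as overlapping matches whose leftmost bases lie at -105 and -102 from the RefSeq start. In Tlx1 the single match lies at -103. The GC box GGGCGG occurred in Nkx2-3 and Barx1 (32.7% of all windows), with 8 matches in Barx1, whose window was 85.6% G and C. An E-box, CANNTG, occurred in Nkx2-5, Nkx2-3 and Tlx1 (66.2%), and in Nkx2-3 it overlapped CCAAT. The NK-2 motif TNAAGTG was in 0 of the 5 windows and in 10.1% of all windows. The homeobox motif TAATTG was likewise in 0 (7.17% of all windows), and so was the TATA box TATAAA (12.4%). A match is a description of letters and was not tested.

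Most other regulators of spleen development were lower under the lymph node label. Of 14 listed genes, 13 were tested between labels in untreated mice, of which 2 were higher under the lymph node label, 9 were lower and 2 did not pass, with a median log2 difference of -0.64. Nkx3-2, a homeobox gene known to be needed for the spleen primordium, was higher by 7.42 ± 0.45, with a mean of 213 ± 17.1 (SD, n = 3) against 0.396 ± 0.88 (n = 5). The other higher gene was the homeobox gene Meis1, by 0.93 ± 0.26 (limma adjusted p = 0.00271). The forkhead factors of vessels Foxc2 and Foxc1 were lower, at -4.43 and -1.77 on the log2 scale, as was the cell cycle inhibitor Cdkn2b, known as a target of Nkx2-5 in the spleen, at -1.61. Nkx3-2 and Foxc2 reached the filter through 1 label alone, the one where they are high, so their differences are a description. Foxc1 and Cdkn2b reached it under both labels and passed in limma (adjusted p at most 3.43e-05). The median over all genes was 0.01.

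Stromal and vessel genes were also lower on balance under the lymph node label, unlike the 6 factors. Of 24 genes of fibroblastic and mural stroma, 17 were lower, 1 was higher and 6 did not pass (median -1.26). The largest of these differences were those of the matrix genes Lum (-4.82), Col1a1 (-4.03) and Dcn (-3.68) and of podoplanin, Pdpn (-3.34). Of 16 tested genes of retinoic acid metabolism and receptors, 10 were lower and 2 higher (median -1.11), with Crabp2, which reached the filter under the spleen label alone, at -3.10, Rxrg at -1.97 and Cyp26b1 at -1.79. Of 12 vessel genes, 7 were lower and 3 higher (median -0.95), led by the lymphatic receptor Lyve1 at -6.57. Madcam1, the addressin whose splenic expression is known to need Nkx2-3, was higher by 1.30 ± 0.20 (limma adjusted p = 1.96e-06) and was chosen after its value was seen.

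Markers of other cells moved between the labels too. All 5 genes of high endothelial venules were lower under the lymph node label and all 6 of red pulp macrophages and all 8 of erythroid cells were higher. Of these, 4, 6 and 3 reached the filter under both labels, and the others only through the label where they are high. All 8 rows of adipocyte genes tested were lower, 4 of them with the filter reached under both labels, and the summed adipocyte level over all groups was 1167 to 2212 against 36297 to 498420 under the spleen label. Of 6 lymphocyte genes, 3 were higher and 3 lower. Of 10 pancreatic acinar genes 1 was higher and 9 did not pass, of 2 tested cardiac muscle genes 1 was higher, and the 1 tested gastric gene was higher, with the filter reached under the lymph node label alone, as for 7 of the acinar genes. Wt1 is also a marker of mesothelial cells, whose other markers moved in both directions. Of 7, Msln (6.56), Upk3b (4.82) and Upk1b (2.59) were higher under the lymph node label and Krt8 (-5.67), Krt18 (-5.18) and Krt19 (-5.10) were lower, and the 3 higher genes reached the filter under the lymph node label alone. Their summed level over all groups was 124 to 1045 under the lymph node label and 988 to 19011 under the spleen label, where Wt1 had 0 reads. Under the spleen label most of this sum was keratin, with untreated means of 1876 for Krt19, 1395 for Krt18 and 1049 for Krt8. Those of Msln, Upk3b, Upk1b and Lrrn4 were 1.38, 0.99, 5.28 and 55.3, so the sum does not give the amount of mesothelium. The part of these cells in the levels of the factors was not tested.

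**Figure D3:**
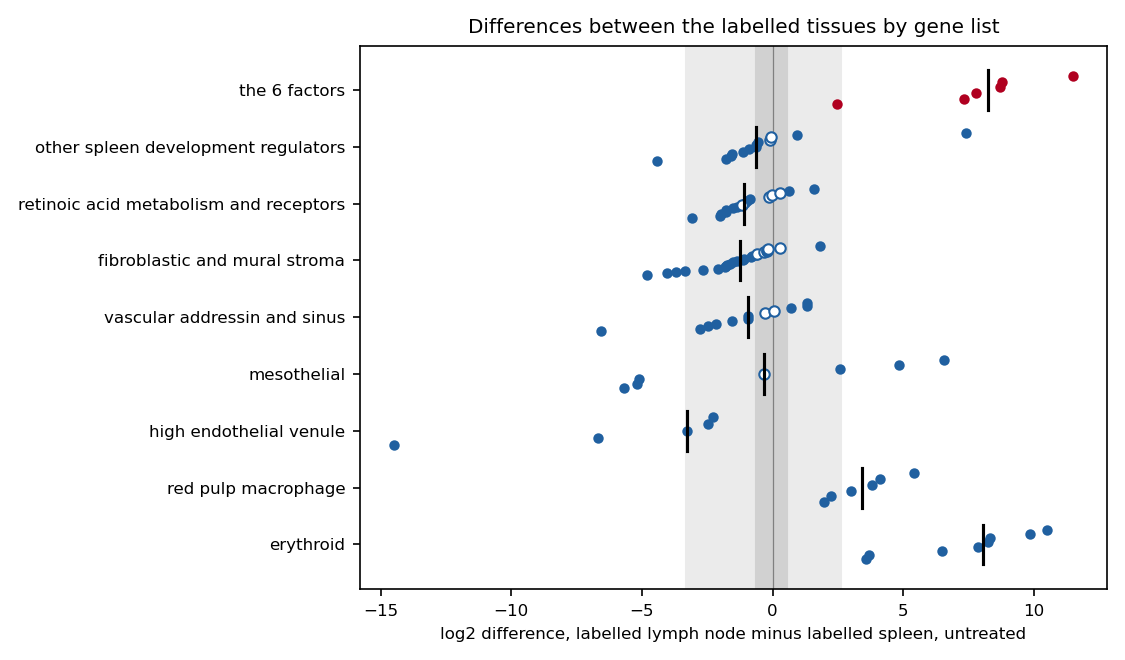
Points are the log2 differences of single genes in untreated mice, labelled lymph node minus labelled spleen, by gene list (filled, adjusted p under 0.05 in limma; open, not passed), and vertical bars are list medians. Dark and light grey bands hold the middle 50% and 95% of all genes tested, from -0.62 to 0.54 and from -3.32 to 2.61, and 5 of the 6 factors lie to the right of both.

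Whether the factors changed with days of NAM was asked within each label. Under the lymph node label, 0 of 6 passed in limma at 1 day, 3 days or 14 days, where 1.21%, 1.24% and 0.791% of the 18215 genes tested were called. At an unadjusted p under 0.05 the counts were 2, 1 and 0 of 6, against 15%, 14.8% and 11.8% of all genes, and edgeR and DESeq2 on the recovered reads also called 0 at each time. The test for any difference among the 4 groups called 0 of 6, against 1.76% of all genes, with 1 of 6 at an unadjusted p under 0.05 (14.9% of all genes). The median log2 difference of the 6 was -0.14, 0.12 and -0.02 at the 3 times, while the medians of all genes were within 0.01 of 0.

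Tcf21 came closest to a call. Its normalised read count was 3686, 3159 and 4295 in the untreated libraries, 4607.5 and 4830.0 at 1 day, 4312, 4028, 5228.5 and 4459 at 3 days, and 4346, 3961, 3491 and 4039.9 at 14 days. Both libraries at 1 day lay above all 3 untreated ones, as they did for 17.1% of all genes, and the groups overlapped at 3 and 14 days. The log2 difference was 0.36 at 1 day (95% interval 0.10 to 0.61, limma adjusted p = 0.172) and 0.28 at 3 days (0.07 to 0.50, adjusted p = 0.197). At 14 days it was 0.10 (-0.12 to 0.31). Across the alternatives other than leaving out a library, the adjusted p at 1 day ranged from 0.132 to 0.275. With 1 library left out, the difference ranged from 0.246 to 0.467 at 1 day (limma adjusted p 0.096 to 0.453) and from 0.173 to 0.395 at 3 days (0.113 to 0.612), lowest without untreated replicate 2 and highest without untreated replicate 3.

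The NK-2 genes had their lowest group means at 1 day. Nkx2-3 was at 569, 591 and 580.1 untreated, 520.1 and 458 at 1 day, 586, 578, 639.9 and 615 at 3 days, and 627, 476, 629 and 562 at 14 days. Nkx2-5 was at 227, 225 and 239 untreated, 195 and 175 at 1 day, 247, 223, 265 and 267 at 3 days, and 219.5, 167, 247 and 237 at 14 days. At 1 day both libraries lay below all untreated ones for both genes, as for 15.5% of all genes. At 14 days the groups overlapped, and replicate 2 was the lowest library of that group for both genes. The log2 difference at 1 day was -0.25 for Nkx2-3 (95% interval -0.50 to -0.002) and -0.32 for Nkx2-5 (-0.65 to 0.02), with limma adjusted p of 0.331 and 0.359. Without replicate 2 at 1 day, which leaves 1 library, they were -0.16 and -0.24 (limma adjusted p 0.706 and 0.681). At 3 and 14 days the intervals of both genes held 0 and stayed within -0.38 and 0.40.

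Tlx1 and Wt1 overlapped their untreated values at all times. Tlx1 was at 351, 410.2 and 573 untreated, 354 and 376 at 1 day, 407, 498, 503 and 494 at 3 days, and 417, 429, 355 and 451 at 14 days. Its untreated libraries spread by 115 (SD) about a mean of 445, the widest relative spread of the 5 higher factors. The log2 difference of Tlx1 was -0.26, 0.12 and -0.08 at 1, 3 and 14 days, with limma adjusted p of at least 0.501. At 1 day it ranged from -0.41 without untreated replicate 1 (adjusted p = 0.303) to -0.06 without untreated replicate 3 (0.907). Wt1 was at 177, 138 and 201 untreated, 171 and 162 at 1 day, 159, 164, 190.2 and 188 at 3 days, and 186, 154, 167 and 166 at 14 days. Its log2 differences were -0.03, 0.04 and -0.02, with 95% intervals of -0.37 to 0.32, -0.25 to 0.33 and -0.31 to 0.27.

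Barx1 gave the widest intervals. It was at 4.08, 2.21 and 11.05 untreated, 9.92 and 22.4 at 1 day, 6.63, 15.9, 7.28 and 23.85 at 3 days, and 49.1, 17.3, 0 and 8.98 at 14 days. Untreated and treated libraries overlapped at each time. The log2 difference was 1.46 (-0.90 to 3.82), 1.14 (-0.84 to 3.11) and 0.75 (-1.22 to 2.73) at the 3 times, so the intervals held changes in either direction. With 1 library left out, it ranged from 0.91 to 2.01 at 1 day, from 0.706 to 1.66 at 3 days and from -0.0352 to 1.85 at 14 days. The library with the highest Barx1, replicate 1 at 14 days, also had the highest summed mesothelial level of the 13, 1045. The library at 0, replicate 3 at 14 days, had the lowest, 124. Whether Barx1 followed that level over the other libraries was not tested.

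**Figure D4:**
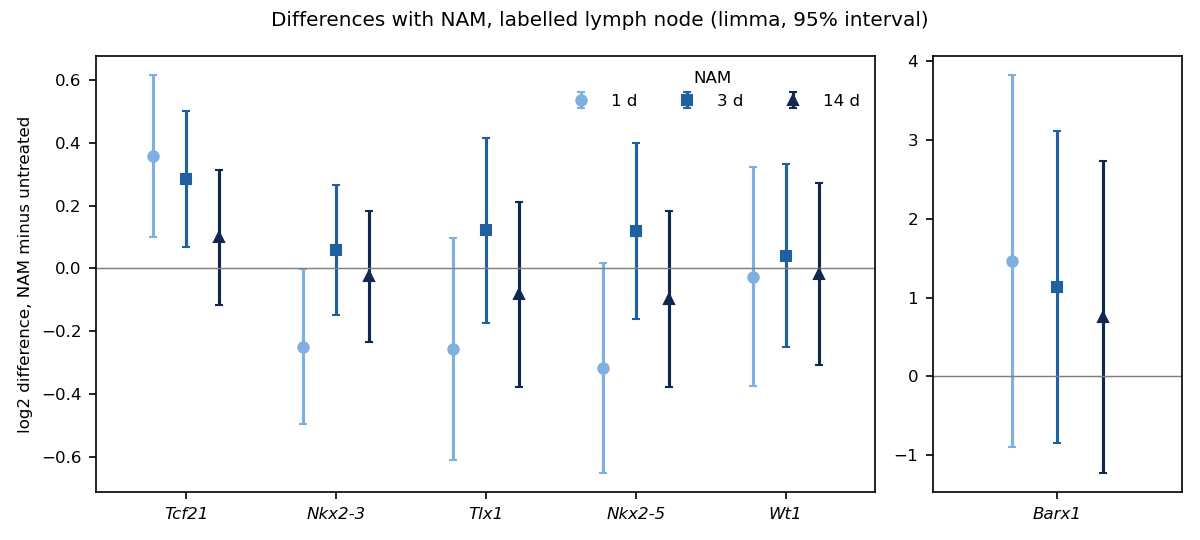
Symbols are log2 differences between NAM and untreated libraries labelled lymph node at 1, 3 and 14 days, with the 95% interval of the limma fit, and Barx1 has its own axis. Of the 18 intervals shown, those of Tcf21 at 1 and 3 days and of Nkx2-3 at 1 day leave out 0.

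Other genes under the lymph node label did move with NAM. All 8 erythroid genes fell at 3 days, against 0.906% of all genes called lower, with log2 differences of -3.15 for Ermap and -4.13 for Rhag, and 2 of 8 fell at 14 days, against 0.681% of all genes, with 8 of 8 at an unadjusted p under 0.05. The summed erythroid level was 20156 to 30455 in untreated libraries and 2139 to 11439 in those of 3 days, with 13785 to 19782 and 8924 to 13517 for 1 and 14 days. Of 24 stromal genes, 2 rose at 3 days, Ccl19 and Grem1 (0.50 and 0.84, log2), against 0.335% of all genes called higher, and 0 were called in limma at 1 and 14 days (9 and 6 at an unadjusted p under 0.05). Of 14 tested genes of retinoic acid metabolism and receptors, 1 fell at 3 and at 14 days, the retinaldehyde dehydrogenase Aldh1a1 (-1.07 and -0.79), and 0 were called in limma at 1 day (8 at an unadjusted p under 0.05). The chemokine Ccl21a rose by 0.90 at 1 day, as 1 of 4 tested genes of high endothelial venules, against 0.884% of all genes called higher. Hmox1 fell by 0.79 at 14 days, as 1 of 6 genes of red pulp macrophages. Of the 12 other spleen regulators tested, 0 passed in limma at 1, 3 and 14 days. At an unadjusted p under 0.05 the counts were 2, 1 and 0, against 15%, 14.8% and 11.8% of all genes. By that threshold, stromal genes had 7 at 3 days, and genes of retinoic acid 1 and 3 at 3 and 14 days. At 1, 3 and 14 days, high endothelial venules had 2, 3 and 1 of 4 genes. Red pulp macrophages had 2, 2 and 3 of 6, and vessels 0, 4 and 1 of 12. Pancreatic acinar genes had 10, 0 and 0 of 10, and adipocyte and mesothelial genes 0 at each time. Replicate 1 at 1 day had a summed pancreatic acinar level of 118510, against 608 to 1220.5 in the other 12 libraries. Without it, 1 library was left at 1 day, which the fit assumes to vary like the other groups, and the log2 difference of Tcf21 at 1 day was 0.39 and those of Nkx2-3 and Nkx2-5 were -0.34 and -0.40, with limma adjusted p of at least 0.304.

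Under the spleen label, none of the 6 factors reached the mean normalised count of 10 that the test required. Tlx1 had the most reads there, and they came from treated mice alone. It had reads in 0 of 5 untreated libraries, 2 of 5 at 1 day, 4 of 5 at 3 days and 4 of 5 at 14 days, with 0, 4, 12 and 12 reads in all. The mean was 0, 0.027, 0.053 and 0.076 CPM (counts scaled to a common library total), while the 0 of the untreated group allows up to 0.048 (3 read pairs over the group). The groups differed in depth, with 18325061 to 31486631 reads per untreated library and 43632016 to 54830743 per library at 3 days. The libraries at 1 day had 21848473 to 32066627 reads and those at 14 days 19880930 to 48338251. In all, the groups held 124030439 reads untreated and 143305730, 234484577 and 147946433 at 1, 3 and 14 days. By an exact permutation test, two-sided, Tlx1 differed from untreated with p = 0.0476 at 3 days and at 14 days (n = 5 and 5, where the smallest possible p is 0.00794). Over the 11 such tests the adjusted p was 0.262 for both, so the difference did not pass. The other genes with any read under this label, Tcf21, Nkx2-3 and Barx1, had 6, 4 and 6 reads over the 20 libraries.

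The difference between labels in the change with NAM was tested itself, in a fit of all 8 groups. It called 0 of the 6 factors at 1, 3 and 14 days, against 1.42%, 0.638% and 0.119% of the 19290 genes, and edgeR and DESeq2 called 0 as well. At an unadjusted p under 0.05 there were 0, 0 and 1 of 6, against 15.9%, 12.4% and 4.99% of all genes. The factors entered this fit through the lymph node label alone, and Nkx2-5 and Wt1 had no read under the spleen label. These counts therefore do not show whether the changes of the factors differed between labels.

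Within the groups labelled lymph node, it was asked whether pairs of factors deviated together, and none of 15 pairs passed after adjustment. The log2 values of the 13 libraries were taken as deviations from their group means and compared for all 15 pairs, with permutation within groups. Nkx2-3 and Nkx2-5 gave the highest Pearson's r, 0.85 (permutation p = 0.0208, adjusted 0.159), with a Spearman's rho of 0.71 (permutation p = 0.0386, adjusted 0.219). Tcf21 and Wt1 followed with r = 0.79 (permutation p = 0.0245, adjusted 0.159) and rho = 0.67 (permutation p = 0.0522, adjusted 0.219). Without the 2 libraries farthest from the median, r was 0.62 and 0.59. At the other end, Nkx2-5 and Barx1 had an r of -0.40 (permutation p = 0.464, adjusted 0.738) and a rho of -0.21 (permutation p = 0.559, adjusted 0.698).

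**Figure D5:**
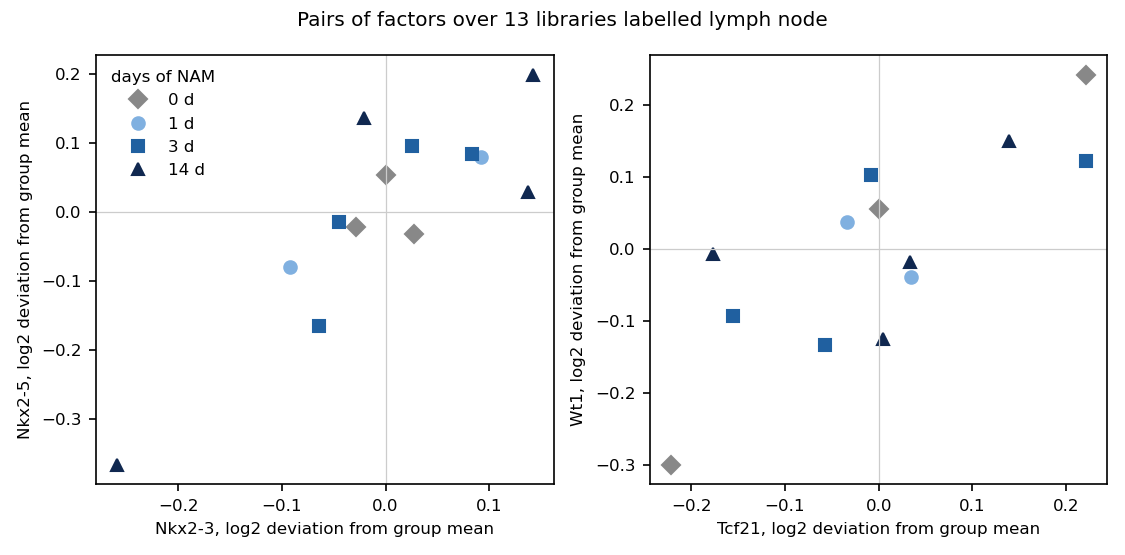
Each point is 1 of the 13 libraries labelled lymph node, placed by its log2 deviation from its group mean for Nkx2-3 and Nkx2-5 (left) and for Tcf21 and Wt1 (right), with symbols for days of NAM. Both clouds rise to the right (r = 0.85 and 0.79), and the lowest point on the left is replicate 2 at 14 days.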

How the data were processed

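RNA of spleens and lymph nodes was extracted with RNeasy kits and polyA libraries were sequenced in paired-end mode. The authors deposited a single table of read counts divided by DESeq2 size factors, a linear signal, with mm10 coordinates and the annotation of the sequencing service; per the labels, STAR 2.4.0, SAMtools, Picard and FastQC were also used. Strand use in the counting is not given in the sources used here. Groups came from the sample titles, and per-library columns left unmapped numbered 0. The 6 factors and the 13 further gene lists were chosen with earlier results of these data known.

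Each library's values were whole multiples of a step (100% within a tolerance of 0.01), which returned the reads. The libraries of each label had been scaled separately (deposited over recomputed size factors 1.029 to 1.039 under the lymph node label), so comparisons between labels used a common median-of-ratios scale. Low read counts were even in 73.5% of cases, since both mates of a pair were counted, so floors were set at 3 read pairs, or 6 reads. Of 56 replicate pairs 0 were identical.

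The test was that of limma 3.58.1 (trend, two-sided, R 4.3.3) on log2 of the normalised count plus 1, all groups of a label in a single fit, for genes with a mean of at least 10 over a label, with Benjamini-Hochberg adjustment over all genes tested and a threshold of 0.05. The added 1 makes fold changes of low genes too small. Checked on simulated reads with 200 genes changed 2-fold, the fit recovered 84.5% in the 3-day comparison of the lymph node label, 71.5% in that of the spleen label and 67% between labels, with 5.06%, 6.54% and 5.63% false calls. Exons and strands came from GENCODE vM21. Named genes were the 6 factors, Glycam1 and Spic, the 4 called genes of each list with the largest difference between labels and the 2 with the smallest p per duration, and the 3 genes most correlated with each factor, and the text gives those the results turn on; some named genes are not reported here. Madcam1 and Meis1 were chosen after their values were seen. Alternatives covered pseudocounts of 0.1 and 5, no filter and a filter at 50, TMM, quantile and deposited scaling, library weights, edgeR 4.0.16 and DESeq2 1.42.0 on recovered reads, an unadjusted p with a fold change of 1.5, the 2 groups alone, the replicate number as a block and each library left out. Permutation tests used scipy 1.17.1.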

Additional observations from a re-analysis of the deposited data

Results flagged for a closer look

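Within the 4 libraries labelled lymph node at 3 days, Tlx1 stood apart in replicate 1, with a normalised read count of 406.6 against 493.9 to 503.4 in the other 3. The gap was 0.902 of the range of the group, above Dixon's critical value of 0.829 for 4 samples. Chance alone gives such a sample in about 1 in 20 groups, and 12 sets of 4 libraries were examined for the 6 factors. Without that library the log2 difference of Tlx1 at 3 days was 0.19.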

How the results depend on the processing

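The count of factors called between labels was 6 of 6 under each alternative on all libraries that tested all 6, and 5 of 5 with the filter at 50 and with only the 2 groups, where Barx1 was not tested. With a library left out, Barx1 lost its call only without untreated replicate 3 of the lymph node label (adjusted p = 0.0663 in limma). On the deposited scale the median of all genes shifted from 0.01 to 0.15. No factor was called with NAM under the lymph node label in any alternative. By the rule of an unadjusted p with a 1.5-fold change, 1 factor, Tlx1, differed between labels in its change at 14 days, where it had 0 untreated and 12 treated reads under the spleen label. Differences with NAM near 0 changed sign. That of Wt1 was 0.038 at 1 day with the replicate block and 0.020 at 14 days under quantile normalisation. With a library left out, the log2 difference of Wt1 ranged between -0.176 and 0.0946 (1 day), between -0.109 and 0.162 (3 days) and between -0.167 and 0.104 (14 days), and that of Tlx1 between -0.0342 and 0.319 (3 days) and between -0.237 and 0.116 (14 days). At 14 days it lay between -0.163 and 0.0253 for Nkx2-5, -0.0723 and 0.0614 for Nkx2-3, -0.0114 and 0.210 for Tcf21 and -0.0352 and 1.85 for Barx1. No pairing of libraries by replicate number was seen within a label. Deviations of same-numbered libraries correlated by -0.50 to 0.47 under the spleen label (median 0.0355, against -0.00788 for other pairs). Under the lymph node label they correlated by -0.11 to 0.08 (median -0.013, against 0.00671). The block changed no call of a factor, and pairs of libraries across labels were not examined. As CPM scaled to the mean depth of the label, Nkx2-3 was at 608.5 untreated and 633.6 at 3 days, and Nkx2-5 at 241.4 untreated. The causes were not tested.

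Counts of all genes called varied more. Under the lymph node label, the 221, 226 and 144 genes at 1, 3 and 14 days became 132 to 894, 167 to 615 and 106 to 630 under other settings, and 66 to 125, 84 to 302 and 31 to 159 with a library left out. Under the spleen label, 3030, 1013 and 0 genes became 1497 to 3932, 145 to 4722 and 0 to 204, and 2278 to 2886, 159 to 2783 and 0. The 274, 123 and 23 genes whose change differed between labels became 176 to 1299, 99 to 1793 and 10 to 562, and 66 to 395, 44 to 818 and 5 to 23. Any difference among the groups gave 321 genes (241 to 980) under the lymph node label and 2260 (1801 to 4764) under the spleen label. Without a filter, Tlx1 under the spleen label had a log2 difference of 1.21 at 3 days and 1.58 at 14 days, with limma adjusted p of 0.206 and 0.978.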

Other observations

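A level of at least 100 in all 13 libraries labelled lymph node and under 5 in all 20 labelled spleen, on the common scale, was found for 7 of 19290 genes, or 0.0363%. The limits were chosen after the values were seen. The 7 were Tcf21, Nkx2-3, Tlx1, Nkx2-5 and Wt1 and 2 genes outside the set, Nr5a1 and Csmd3. Nr5a1, a nuclear receptor known from steroid-producing tissue and from the vessels of the spleen, ran from 189 to 305 with 14 reads in all under the spleen label. Csmd3 ran from 113 to 194 with 10 reads. The opposite pattern was found for 12 genes, and 0 of the 6 factors.

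The genes whose log2 deviations from the group means were most like those of a factor, over the 13 libraries labelled lymph node and among 18209 genes, are given as a description. For Tlx1 they were the complement gene C1ra (r = 0.93), Proser3 (0.93) and the Wnt antagonist Frzb (0.93). For Tcf21 they were Tceal1 (0.93), the complement gene C2 (0.92) and the vascular growth factor Vegfa (0.92). For Wt1 they were Atoh8 (0.93), the row GSMG0018310 without a symbol (0.91) and the endothelial lectin gene Clec14a (0.91). For Nkx2-3 they were Tsen34 (0.94), Cyb5rl (0.91) and Frs3 (0.91), and for Nkx2-5 they were Pmel (0.92), Etfb // Mir7051 (0.90) and As3mt (0.90). For Barx1 they were GSMG0011402 without a symbol (0.96), Fmo2 (0.96) and the claudin gene Cldn15 (0.95). With so many genes compared over 13 libraries, whose depth and marker levels differ, values of this size are no finding.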
